A study of Mus musculus with 12 samples.

Results

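The genes described here encode proteins that release fatty acids from circulating lipoproteins, bring them into the fat cell, activate them and carry them through the cytosol. They were fixed as a list of 9 mouse genes, Fabp3, Fabp4, Fabp5, Fabp7, Cd36, Lpl, Slc27a1, Slc27a4 and Acsl1. Of these, 8 had a probe set annotated to that gene alone and stood among the 19938 genes tested. Acsl1, a long-chain acyl-CoA synthetase of fat cells, had none and was not analysed here.

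RNA of 12 samples was hybridised to Affymetrix arrays, 3 arrays in each of 4 groups that the labels call biological triplicates. The culture models were adipocytes of 3 origins: the 3T3-L1 line, which is an immortalised fibroblast line of the mouse that hormones can turn into fat cells, PMEF (primary embryonic fibroblasts) and ES (embryonic stem) cells, both murine. The tissue was whole epididymal white fat, eWAT, of healthy wild-type mice. The sources used here state no strain, age or sex of the mice, although epididymal fat is found only in males. They give neither culture media nor days of differentiation, and cell origin cannot be told apart from culture conditions. The title of the series asks how the culture models compare with the tissue.

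Fat cells take up fatty acids chiefly from triglyceride-rich lipoproteins. Lipoprotein lipase, made by the fat cell and moved to the capillary wall, splits the triglyceride. The fatty acids pass the cell membrane with the help of the scavenger receptor CD36 and the fatty acid transport proteins, are joined to coenzyme A, and are shuttled by small cytosolic fatty acid binding proteins (FABPs). Fabp4 is the main FABP of fat cells, Fabp5 accompanies it there and in skin and macrophages, Fabp3 is known from heart and skeletal muscle, and Fabp7 from the developing brain.

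Values are log2 intensities, so that a difference of 1 is a doubling. As a gauge of background, the 95th percentile of the odorant and pheromone receptor genes lay between 5.04 and 5.36 on the 12 arrays, and the brightest probe set of an array lay between 13.35 and 13.48. The adipocyte markers Adipoq, Plin1, Cidec, Retn, Pparg and Lipe were above the receptor level in every group. Endothelial and macrophage markers were prominent in the tissue. The summed intensity of 7 endothelial markers (Pecam1, Cdh5, Emcn, Kdr, Tek, Tie1 and Cldn5) was 5150 to 6677 in eWAT and 255 to 333 in the cultures, and that of 7 macrophage markers (Adgre1, Lyz2, C1qa, C1qb, Csf1r, Mrc1 and Cd68) was 5800 to 11187 in eWAT and 563 to 1706 in the cultures. All 7 endothelial markers fell in each culture against eWAT, and all 7 macrophage markers in PMEF and ES adipocytes. In 3T3-L1 adipocytes 6 macrophage markers fell, while Cd68, a lysosomal protein, rose by 0.93 ± 0.19 (limma adjusted p = 0.000909), with a mean of 10.42 against 9.49 in eWAT and 8.66 in ES adipocytes. At or below the receptor level on every array of a group were Emcn in all 3 cultures, Kdr, Adgre1 and Mrc1 in 3T3-L1 and ES, Csf1r in 3T3-L1 and Lyz2 in ES adipocytes. Macrophages can express Cd36, Lpl, Fabp4 and Fabp5, and endothelial cells Cd36, Fabp4 and Fabp5. The part of both cell types in the values was not tested. In bulk RNA, fewer cells of a type and less RNA per cell cannot be told apart.

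The genes fell into distinct patterns. Lpl, Cd36 and Fabp4 were bright and nearly level across all 4 groups. Fabp5 was higher in each culture model than in the tissue, by 2.56-fold to 3.67-fold. Slc27a1 was lower in each model, most of all in 3T3-L1 adipocytes at 5.92-fold below eWAT, while its relative Slc27a4 was higher. Fabp3 was raised in PMEF and ES adipocytes, and Fabp7 stood 28.4-fold above eWAT in ES adipocytes.

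**Figure D1:**
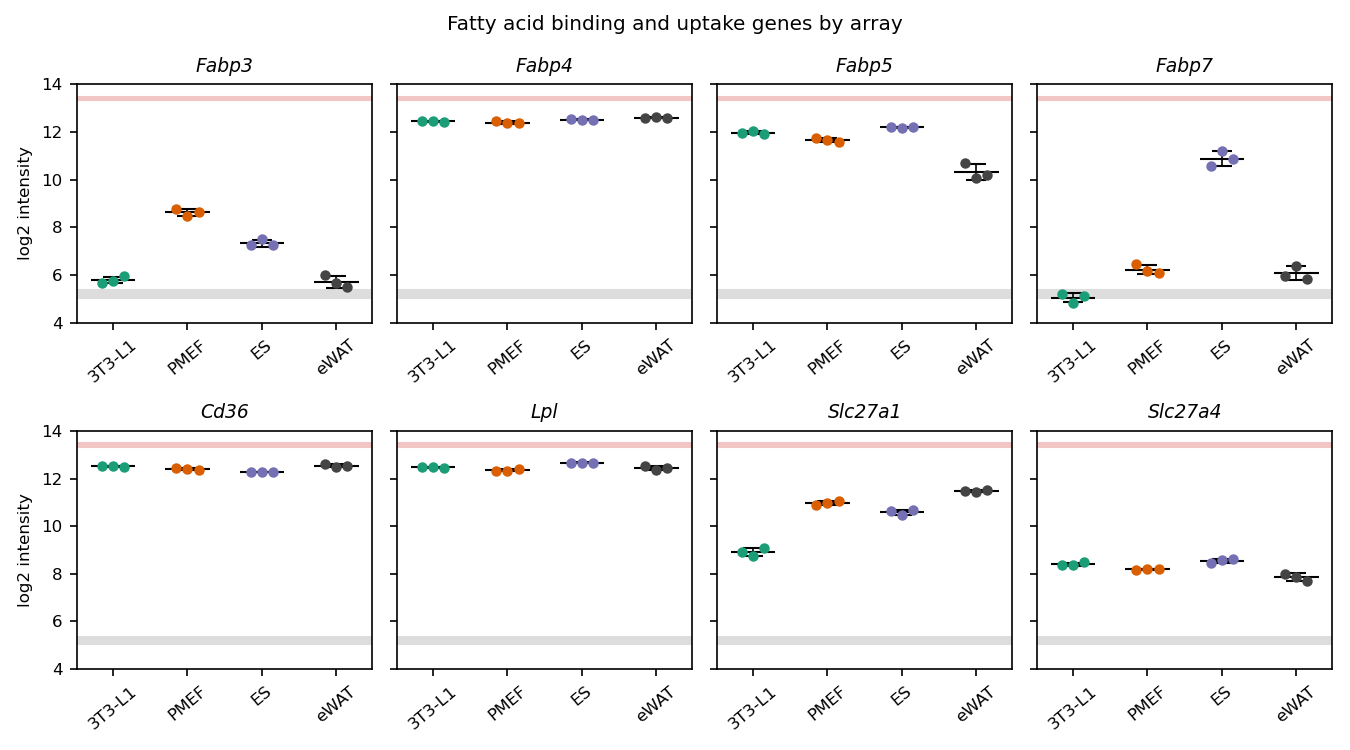
Log2 intensity (vertical axis) of the 8 measured genes in each of the 12 arrays, by group (horizontal axis). Points are arrays, horizontal bars the group mean and error bars the SD of 3 arrays; the grey band is the range over arrays of the 95th percentile of receptor genes and the red band that of the brightest probe set. Fabp7 is high in the ES arrays at 10.59 to 11.22, Fabp3 in the PMEF arrays at 8.46 to 8.79, and Fabp5 and Slc27a1 set the cultures apart from the tissue in opposite directions.

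Differences were tested with limma over all genes, and a gene is said to have risen or fallen where the Benjamini-Hochberg adjusted p was under 0.05. Errors of differences are moderated standard errors with n = 3 per group, and errors of levels are SDs. In 3T3-L1 adipocytes against eWAT, 2 of the 8 genes rose (Fabp5 and Slc27a4) and 2 fell (Slc27a1 and Fabp7), where 53.3% of all genes were called, 30.8% higher and 22.5% lower. In PMEF adipocytes 3 rose (Fabp3, Fabp5 and Slc27a4) and 2 fell (Slc27a1 and Fabp4), where 46.3% of all genes were called, 24.7% higher and 21.6% lower. In ES adipocytes 5 rose (Fabp7, Fabp5, Fabp3, Slc27a4 and Lpl) and 2 fell (Slc27a1 and Cd36), where 49.7% of all genes were called, 28.8% higher and 20.9% lower. The median difference over the 8 genes came to -0.0002 for 3T3-L1, 0.04 for PMEF and 0.46 for ES adipocytes, against 0.05, 0.05 and 0.04 over all genes. Changes of at least 2-fold numbered 3 for 3T3-L1, 2 for PMEF and 3 for ES adipocytes, where 14.5%, 10.4% and 10.2% of all genes changed that much. The arrays of the 2 groups did not overlap for 5 genes with 3T3-L1, 6 with PMEF and 8 with ES adipocytes, where 59.1%, 51.9% and 57.9% of all genes did not overlap. The 3 comparisons share the eWAT arrays.

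**Figure D2:**
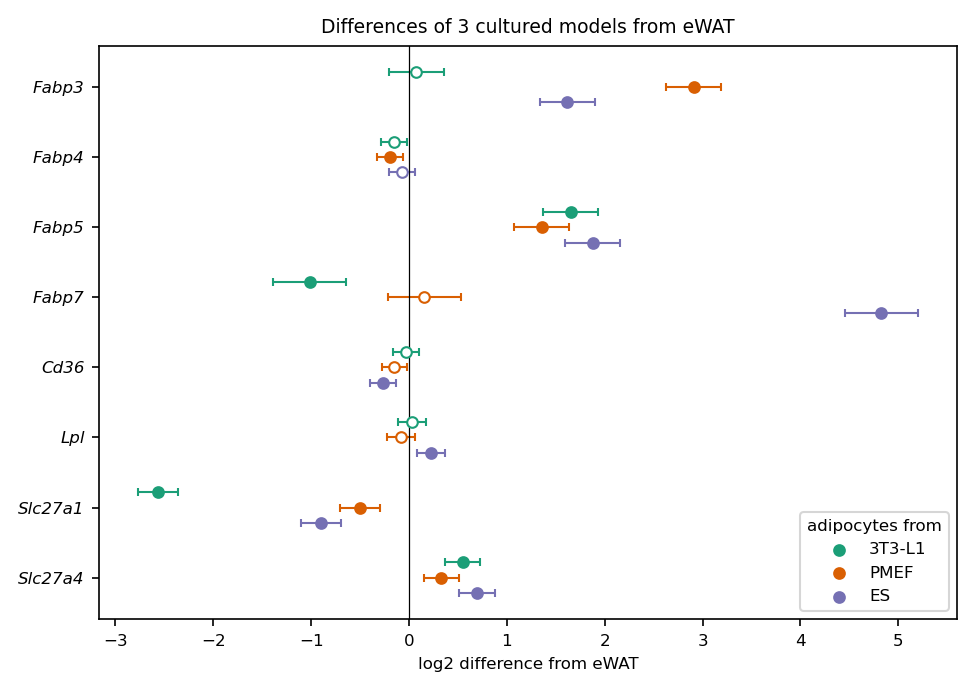
Log2 difference from eWAT (horizontal axis) of each gene in 3T3-L1, PMEF and ES adipocytes, with 95% confidence intervals from the limma fit. Filled points passed the test and open points did not; Fabp7 in ES adipocytes is farthest to the right at 4.83 and Slc27a1 in 3T3-L1 adipocytes farthest to the left at -2.57.

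Lpl, the lipase that frees fatty acids from lipoprotein triglyceride, was at 12.47, 12.49 and 12.45 in 3T3-L1, at 12.33, 12.34 and 12.41 in PMEF, at 12.65, 12.68 and 12.67 in ES adipocytes and at 12.53, 12.35 and 12.44 in eWAT. The ES arrays were above all others, and the tissue arrays overlapped those of 3T3-L1 and of PMEF. The order of the means was ES, 3T3-L1, eWAT, PMEF, and of neighbours in it only ES and 3T3-L1 differed, by 0.20 ± 0.06 (adjusted p = 0.0253). Against eWAT, Lpl rose in ES adipocytes by 0.23 ± 0.06 (adjusted p = 0.0099), and against PMEF by 0.31 ± 0.06 (adjusted p = 0.00159). It was at 0.03 ± 0.06 in 3T3-L1 (adjusted p = 0.728, 95% interval -0.11 to 0.17) and at -0.08 ± 0.06 in PMEF adipocytes (adjusted p = 0.337, interval -0.22 to 0.06). The rise against 3T3-L1 did not pass when any 1 of the 6 arrays of these groups was left out (adjusted p = 0.0516 to 0.0715), and the rise against eWAT did not pass with arrays centred on reference genes (0.0572).

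Cd36, the surface receptor that takes up long-chain fatty acids, was at 12.52, 12.53 and 12.51 in 3T3-L1, at 12.44, 12.41 and 12.35 in PMEF, at 12.29, 12.27 and 12.28 in ES adipocytes and at 12.61, 12.49 and 12.54 in eWAT. The ES arrays were the lowest, and the 3T3-L1 arrays lay within the range of the tissue. The order of the means was eWAT, 3T3-L1, PMEF, ES, in which no neighbours passed the test (adjusted p = 0.133 to 0.709). Across 2 or more steps Cd36 fell in ES adipocytes by 0.27 ± 0.06 against eWAT (adjusted p = 0.00226) and by 0.24 ± 0.06 against 3T3-L1 (adjusted p = 0.00603). The fall against 3T3-L1 did not pass with arrays centred on reference genes (-0.057, adjusted p = 0.49). In PMEF adipocytes Cd36 was at -0.15 ± 0.06 against eWAT (adjusted p = 0.0628).

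Fabp4, the abundant carrier of fat cells, was at 12.47, 12.47 and 12.41 in 3T3-L1, at 12.47, 12.36 and 12.36 in PMEF, at 12.55, 12.50 and 12.51 in ES adipocytes and at 12.59, 12.62 and 12.58 in eWAT. The tissue arrays were above every culture array, by small steps. The order was eWAT, ES, 3T3-L1, PMEF, and no neighbours passed the test. The fall of 0.20 ± 0.06 in PMEF adipocytes against eWAT passed (adjusted p = 0.0177), but not without PMEF array 2 (0.0617) or 3 (0.0545), with quantile normalization (0.197) or with only the arrays of the 2 groups (0.082). The ES adipocytes were at -0.08 ± 0.06 (adjusted p = 0.342, 95% interval -0.21 to 0.06).

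These 3 genes lay near the top of the scale. By group mean, only 9 to 29 of 19938 genes were as bright as Lpl or brighter, 18 to 40 for Cd36 and 16 to 26 for Fabp4. Whether the signal still rose in proportion to RNA at that level was not tested. The SD of Lpl over all 12 arrays was 0.13, of Cd36 0.12 and of Fabp4 0.09, against 2.37 for Fabp7 and 1.27 for Fabp3. The differences of the 3 genes that involve 3T3-L1 arrays also depended on scaling. Centring arrays on their medians moved the median difference of all genes between 3T3-L1 adipocytes and eWAT by 0.21, and centring on 7 reference genes moved it by -0.24. Under these settings Fabp4, Cd36 and Lpl in 3T3-L1 adipocytes were at 0.06, 0.18 and 0.24, or at -0.39, -0.27 and -0.21 against eWAT.

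Slc27a1 (FATP1), an insulin-regulated transport protein of fat and muscle with acyl-CoA synthetase activity, was at 8.91, 8.74 and 9.10 in 3T3-L1, at 10.90, 10.97 and 11.07 in PMEF, at 10.62, 10.46 and 10.67 in ES adipocytes and at 11.48, 11.44 and 11.53 in eWAT. The groups did not overlap in any pair, and the tissue was the highest. All neighbours in the order eWAT, PMEF, ES, 3T3-L1 differed. Slc27a1 fell in every model, with differences from eWAT of -2.57 ± 0.09 in 3T3-L1 (adjusted p = 4.61e-11), -0.90 ± 0.09 in ES (2.64e-06) and -0.50 ± 0.09 in PMEF adipocytes (0.00057). Against 3T3-L1 adipocytes it rose by 2.07 ± 0.09 in PMEF (adjusted p = 4.88e-10) and by 1.67 ± 0.09 in ES adipocytes (7.43e-09). ES minus PMEF was -0.40 ± 0.09 (adjusted p = 0.00331). Of the 6 adipocyte markers, 5 fell against eWAT in 3T3-L1 adipocytes, with a median over the list of -1.03. In PMEF adipocytes 5 fell with a median of -0.67, and in ES adipocytes 4 fell and 1 rose, Cidec, with a median of -0.23. In the last of these the falls of Plin1 and Adipoq did not pass without eWAT array 1 or any ES array for Plin1 (adjusted p = 0.0505 to 0.109) and without ES array 3 for Adipoq (0.0528). The part of the general adipocyte level in the Slc27a1 values was not tested.

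Slc27a4 (FATP4), a transport protein with very long-chain acyl-CoA synthetase activity, was at 8.38, 8.36 and 8.48 in 3T3-L1, at 8.16, 8.19 and 8.21 in PMEF, at 8.46, 8.58 and 8.62 in ES adipocytes and at 8.01, 7.88 and 7.69 in eWAT. Here the tissue was the lowest, below every culture array. Slc27a4 rose against eWAT by 0.70 ± 0.08 in ES (adjusted p = 1.05e-05), by 0.55 ± 0.08 in 3T3-L1 (7.15e-05) and by 0.33 ± 0.08 in PMEF adipocytes (0.00513). ES and 3T3-L1 adipocytes did not pass the test against each other (0.15 ± 0.08, adjusted p = 0.182, 95% interval -0.03 to 0.33). ES adipocytes were above PMEF by 0.36 ± 0.08 (adjusted p = 0.00293). PMEF minus 3T3-L1 was -0.22 ± 0.08, close to the threshold (adjusted p = 0.046). It did not pass in 10 of the 12 fits that left out 1 array (adjusted p = 0.0217 to 0.147 over the 12), nor with the replicate number as a block (0.0723), with quantile normalization (0.478) or with arrays centred on reference genes (0.963).

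The distance between the 2 transporters was also read within arrays, where scaling cancels. It is built from the same values as above and does not show which of the 2 genes moved. The log2 difference Slc27a1 minus Slc27a4 averaged 3.62 ± 0.20 in eWAT, 2.79 ± 0.06 for PMEF, 2.03 ± 0.14 for ES and 0.51 ± 0.13 for 3T3-L1 adipocytes (SD, n = 3). The 4 groups did not overlap, and 3T3-L1 minus eWAT was -3.11. Each of the 6 pairs of groups gave p = 0.1 in a two-sided exact permutation test, the smallest value that 3 against 3 arrays allow, and 0.1 after adjustment over the 6 pairs.

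Fabp5, the epidermal-type FABP, which is close to Fabp4 in family and genome position, was at 11.97, 12.05 and 11.90 in 3T3-L1, at 11.77, 11.68 and 11.59 in PMEF, at 12.20, 12.18 and 12.21 in ES adipocytes and at 10.72, 10.06 and 10.20 in eWAT. Every culture array was above every tissue array. Fabp5 rose against eWAT by 1.88 ± 0.13 in ES (adjusted p = 5.56e-08), by 1.65 ± 0.13 in 3T3-L1 (1.19e-07) and by 1.36 ± 0.13 in PMEF adipocytes (1.3e-06). In the order ES, 3T3-L1, PMEF, eWAT the step from PMEF to eWAT passed the test. The steps from ES to 3T3-L1 (0.23 ± 0.13, adjusted p = 0.194) and from 3T3-L1 to PMEF (PMEF minus 3T3-L1 -0.30 ± 0.13, adjusted p = 0.078) did not, although their arrays did not overlap. Both steps passed without eWAT array 1 (adjusted p = 0.021 and 0.00357), the highest of the tissue arrays. They also passed in limma fits with only the arrays of the 2 groups (adjusted p = 0.0162 and 0.0122). The main fit pools the spread over all groups, and the SD of Fabp5 was 0.35 in eWAT and at most 0.09 in a culture. ES was above PMEF by 0.52 ± 0.13 (adjusted p = 0.00526). The part of macrophages and endothelial cells, whose marker values are given above, was not tested.

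Within arrays, Fabp5 minus Fabp4 was -2.27 ± 0.35 in eWAT, -0.72 ± 0.04 in PMEF, -0.47 ± 0.05 in 3T3-L1 and -0.32 ± 0.02 in ES adipocytes (SD, n = 3). The gap between the 2 carriers was thus narrower by 1.55 to 1.95 in the cultures, and the groups did not overlap. A level difference between different probe sets is not a ratio of transcripts, but its change between groups can be compared. In the cultures Fabp5 also lay near the top of the scale, with 51 to 141 genes as bright or brighter by group mean. Whether the signal still rose in proportion to RNA there was not tested. All 6 pairs gave an exact permutation p of 0.1 (two-sided, 0.1 after adjustment), the smallest possible.

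**Figure D3:**
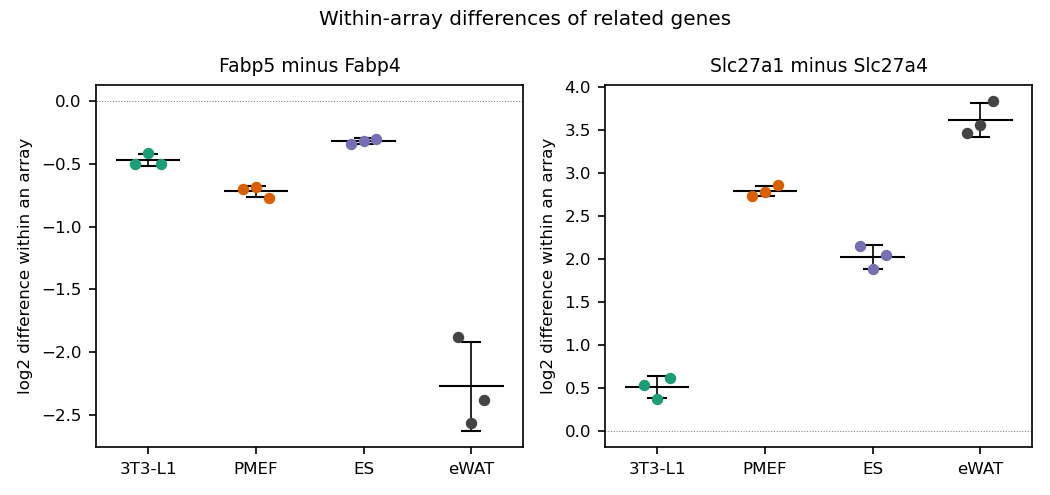
Difference of log2 intensities within an array (vertical axis) for Fabp5 minus Fabp4 and Slc27a1 minus Slc27a4, by group (horizontal axis). Points are arrays, horizontal bars means and error bars the SD of 3 arrays; the eWAT arrays are lowest on the left at -2.56 to -1.88 and highest on the right at 3.46 to 3.84.

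Fabp3, the heart-type FABP, was at 5.66, 5.77 and 5.94 in 3T3-L1, at 8.79, 8.46 and 8.63 in PMEF, at 7.25, 7.49 and 7.26 in ES adipocytes and at 5.996, 5.67 and 5.48 in eWAT. The PMEF arrays were the highest and the ES arrays stood between, while 3T3-L1 and tissue arrays overlapped just above the receptor level. Fabp3 rose against eWAT by 2.91 ± 0.13 in PMEF, a 7.52-fold difference (adjusted p = 5.98e-10), and by 1.62 ± 0.13 in ES adipocytes (2.32e-07). ES minus PMEF was -1.29 ± 0.13 (adjusted p = 2.82e-06). In 3T3-L1 adipocytes Fabp3 was at 0.07 ± 0.13 against eWAT (adjusted p = 0.675, 95% interval -0.21 to 0.36). The low levels near background limit how far a difference there can be measured.

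Fabp3 and Fabp5 each had 2 probe sets of their own name, and the brighter stood for the gene. Which of them may also read a near-identical gene copy cannot be settled from the annotation, so their differences were compared. The other Fabp3 probe set gave 0.13 for 3T3-L1, 3.31 for PMEF and 2.03 for ES adipocytes against eWAT, and the other Fabp5 probe set gave 1.64, 1.36 and 1.87. The calls were the same with either probe set.

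Markers of cells known for Fabp3 were read beside it. Of 8 heart and skeletal muscle markers (Myh6, Myh7, Tnnt2, Myl2, Actc1, Tnni3, Ckm and Acta1), 3 rose in PMEF adipocytes against eWAT, Tnnt2 by 1.43 ± 0.08, Tnni3 by 0.49 ± 0.10 and Myh7 by 0.35 ± 0.10. The Myh7 rise did not pass without PMEF array 2 or 3 or eWAT array 1 (adjusted p = 0.0588, 0.0591 and 0.0623). In ES adipocytes 1 rose, Tnnt2 by 0.30 ± 0.08, and in 3T3-L1 adipocytes Myh6 rose by 0.30 ± 0.12 and Actc1 fell by 0.40 ± 0.10. The Myh6 rise lay next to the receptor level and did not pass without any 1 of 5 arrays (adjusted p = 0.0514 to 0.173). The summed intensity of the list was 577 to 608 in PMEF, 482 to 499 in ES, 470 to 498 in 3T3-L1 adipocytes and 473 to 496 in eWAT, and Myl2 was at or below the receptor level on every array. Of 6 fibroblast markers (Col1a1, Col3a1, Pdgfra, Lum, Dcn and Thy1) all rose in PMEF adipocytes, where the summed intensity was 21606 to 21820 against 8913 to 10223 in eWAT. The Dcn rise of 0.22 ± 0.08 did not pass without PMEF array 1 or 2 or eWAT array 1 (adjusted p = 0.0695, 0.0988 and 0.129). In ES adipocytes 1 rose and 3 fell, and in 3T3-L1 adipocytes all 6 fell. Of 5 brown fat markers 2 rose and 3 fell in 3T3-L1 against eWAT, 1 rose and 3 fell in PMEF, and 2 rose and 2 fell in ES adipocytes. The coactivator gene Ppargc1a rose in all of them, by 2.51 ± 0.09, 0.64 ± 0.09 and 1.09 ± 0.09, and Cox7a1 rose by 0.60 ± 0.15 in 3T3-L1 and 2.15 ± 0.15 in ES adipocytes. Cidea and Ebf2 fell in all of them, Cidea by 3.13 ± 0.12, 4.54 ± 0.12 and 3.06 ± 0.12. Ucp1, the uncoupling protein, was at 10.05, 8.05 and 7.45 in eWAT, and its fall of 1.69 ± 0.47 in PMEF adipocytes came to -0.92 without eWAT array 1. In 3T3-L1 adipocytes Ucp1 fell by 3.87 to a mean of 4.65. It was at or below the receptor level on every array there, so this fall is rough in size. In ES adipocytes Ucp1 was at -1.02 ± 0.47 (adjusted p = 0.0902), or -1.56 without eWAT array 3 (0.00979). The part of these cell types in the Fabp3 values was not tested.

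Fabp7, the brain-type FABP of radial glia and neural progenitors, was at 10.59, 11.22 and 10.86 in ES adipocytes. It was at 6.45, 6.15 and 6.07 in PMEF, at 5.19, 4.83 and 5.11 in 3T3-L1 adipocytes and at 5.95, 6.40 and 5.85 in eWAT. The ES arrays were far above all others, PMEF and tissue arrays overlapped, and 2 of the 3 arrays of 3T3-L1 were at or below the receptor level. Fabp7 rose in ES adipocytes by 4.83 ± 0.17 against eWAT (adjusted p = 9.29e-11), by 4.67 ± 0.17 against PMEF (3.39e-10) and by 5.84 ± 0.17 against 3T3-L1 (1.58e-11), the last measured against arrays at background and so rough in size. It fell in 3T3-L1 adipocytes by 1.02 ± 0.17 against eWAT (adjusted p = 0.000189), a difference that ends at background and is rough in size. In PMEF it was at 0.16 ± 0.17 (adjusted p = 0.485, 95% interval -0.22 to 0.53).

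Neural markers in the same ES arrays moved in both directions. Of 7 measured neural and glial markers, 4 rose in ES adipocytes against eWAT, the glial filament gene Gfap by 2.01 ± 0.12, the stem and neural progenitor gene Sox2 by 1.62 ± 0.12, Map2 by 1.49 ± 0.15 and Tubb3 by 0.34 ± 0.07, and 2 fell, Slc1a3 by 1.83 ± 0.11 and Nes by 1.64 ± 0.14, while Sox10 was at -0.13 ± 0.10. Gfap was at 6.68, 7.19 and 6.87 and Sox2 at 5.55, 5.83 and 5.51 in ES adipocytes, and both were at or below the receptor level on all arrays of the other 3 groups. Tubb3 was at or below it on all 12 arrays. The summed intensity of the list was 814 to 937 in ES adipocytes, 575 to 637 in PMEF, 1108 to 1162 in 3T3-L1 and 1600 to 2150 in eWAT. Slc1a3 was the brightest of the list in each group and weighed most in the sum. Its means were 8.79 in ES, 8.34 in PMEF, 9.88 in 3T3-L1 adipocytes and 10.62 in eWAT. In PMEF adipocytes 2 of the list rose against eWAT, Map2 by 1.15 ± 0.15 and Tubb3 by 0.38 ± 0.07. Slc1a3 and Nes fell there, and the mean of Nes was 5.39 against 6.95 in eWAT. In 3T3-L1 adipocytes none rose and 2 fell, Slc1a3 and Nes. Nes had a mean of 4.54 in 3T3-L1 adipocytes, at or below the receptor level on every array. The part of neural cells in the Fabp7 values was not tested.

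RefSeq promoter sequences (GRCm38.p6) were at hand for 6 of the 9 genes, and those of Fabp7 and Fabp3 are shown because these genes changed most between the culture models. They are the 250 bases before the transcription start, on the plus strand and written 5′ to 3′, at chr10:57784673-57784922 for Fabp7 and chr4:130308488-130308737 for Fabp3. Capitals mark matches to any of 7 motifs searched on both strands.
Fabp7: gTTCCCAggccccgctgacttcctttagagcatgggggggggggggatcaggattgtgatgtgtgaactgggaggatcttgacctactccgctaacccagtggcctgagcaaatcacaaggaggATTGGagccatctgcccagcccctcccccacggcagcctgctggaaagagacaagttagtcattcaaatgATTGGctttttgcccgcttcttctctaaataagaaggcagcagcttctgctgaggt
Fabp3: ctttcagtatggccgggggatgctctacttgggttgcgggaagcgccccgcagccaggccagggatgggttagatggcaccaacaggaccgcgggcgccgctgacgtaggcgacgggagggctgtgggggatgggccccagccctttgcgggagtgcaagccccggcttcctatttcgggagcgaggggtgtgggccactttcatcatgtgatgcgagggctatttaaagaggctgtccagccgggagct
In Fabp7 the matches were 2 reverse-strand CCAAT boxes (CCAAT), 126 to 122 and 56 to 52 bases before the start, and 1 reverse-strand core of the Notch effector RBPJ (TGGGAA), 249 to 244 bases before it. Of 32851 promoter windows of this length, 33.9% held a CCAAT box and 21.6% the RBPJ core. The Fabp3 window held none of the 7 motifs. The others were a GC box (GGGCGG, in 32.7% of windows), the TATA box (TATAAA, 12.4%), a C/EBP core (TTGCNNAA, 9.56%), the octamer (ATGCAAAT, 1.60%) and the PPAR-RXR direct repeat with 1 spacer base (0.033%). A match is a description of the letters, and the arrays measured no binding.

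Between the culture models, 3 of the 8 genes rose in PMEF against 3T3-L1 adipocytes (Fabp3, Slc27a1 and Fabp7) and 1 fell (Slc27a4), where 50.1% of all genes were called, 22.3% higher and 27.8% lower. In ES against 3T3-L1 adipocytes 4 rose (Fabp7, Slc27a1, Fabp3 and Lpl) and 1 fell (Cd36), where 43.4% of all genes were called, 20.4% higher and 23% lower. In ES against PMEF adipocytes 4 rose (Fabp7, Fabp5, Slc27a4 and Lpl) and 2 fell (Fabp3 and Slc27a1), where 42.6% of all genes were called, 23.6% higher and 19% lower. Fabp7 rose in PMEF against 3T3-L1 by 1.17 ± 0.17 (adjusted p = 5.68e-05). Called changes of at least 2-fold numbered 3, 3 and 2 in these comparisons, where 12.5%, 8.14% and 6.71% of all genes changed that much, and 7, 7 and 8 genes did not overlap, against 56.5%, 55.4% and 52.4% of all genes. The shares of higher and lower calls over all genes moved with the scaling wherever 3T3-L1 arrays entered. Of the calls, 57.8% were higher in 3T3-L1 adipocytes against eWAT, 77.1% with arrays centred on medians and 30.9% on reference genes. In PMEF against 3T3-L1 adipocytes these shares were 44.6%, 23.6% and 70.8%, and in ES against 3T3-L1 adipocytes 47.1%, 21.7% and 71.6%.

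Other genes of the pathway were taken from 4 lists of 40 genes, of which 36 were measured. In 3T3-L1 adipocytes against eWAT 12 rose and 10 fell, in PMEF 9 rose and 10 fell, and in ES adipocytes 9 rose and 10 fell. These counts stand beside the 53.3%, 46.3% and 49.7% of all genes called in either direction and are near those shares, and the counts of the single lists below are read against the same shares. Among partners and relatives of lipoprotein lipase, 5 of 12 rose and 4 fell in 3T3-L1, 4 rose and 6 fell in PMEF, and 3 rose and 5 fell in ES adipocytes. Gpihbp1, which holds the lipase on the capillary wall, fell in all of them, with differences of -3.26 ± 0.07 (3T3-L1), -3.29 ± 0.07 (PMEF) and -3.14 ± 0.07 (ES), beside the falls of the endothelial markers given above. Sel1l, needed for folding and release of the lipase, rose by 0.79 ± 0.07, 0.37 ± 0.07 and 1.01 ± 0.07. Angptl8, an insulin-induced regulator of lipase activity, fell by 1.60 ± 0.16 in 3T3-L1 but rose by 0.72 ± 0.16 in PMEF and 0.69 ± 0.16 in ES adipocytes. The lipase inhibitor gene Apoc3 fell by 1.82 ± 0.20 in PMEF and 1.49 ± 0.20 in ES adipocytes and was at -0.11 ± 0.20 in 3T3-L1. Lipg, the endothelial lipase, fell by 1.70 ± 0.14 in 3T3-L1 and rose by 0.71 ± 0.14 in ES adipocytes. For Lipg, 2 of 3 arrays of 3T3-L1 were at or below the receptor level. The apolipoprotein gene Apoc1 rose by 0.80 ± 0.07 in 3T3-L1 and fell by 0.43 ± 0.07 in PMEF adipocytes. Of the lipoprotein receptors, Vldlr rose by 0.53 ± 0.11 in 3T3-L1 adipocytes and fell by 0.37 ± 0.11 in PMEF (limma adjusted p = 0.011). Without eWAT array 1 the latter came to -0.23 and still passed (0.0302). Lrp1 fell by 1.55 ± 0.07 in 3T3-L1 and 0.65 ± 0.07 in ES adipocytes and rose by 0.46 ± 0.07 in PMEF. Angptl4, an inhibitor of the lipase, fell by 0.29 ± 0.08 in ES adipocytes and by 0.29 ± 0.08 in PMEF, the latter not passing without PMEF array 2 (adjusted p = 0.0503) or eWAT array 1 (-0.19, 0.0509). Lmf1, a factor for lipase maturation, fell by 0.42 ± 0.06 in PMEF adipocytes, and its relative Lmf2 rose by 0.26 ± 0.07 in PMEF and fell by 0.26 ± 0.07 in ES adipocytes. In 3T3-L1 adipocytes Lmf1 rose by 0.20 ± 0.06 and Lmf2 by 0.19 ± 0.07. Of these small rises, Lmf1 did not pass without 3T3-L1 array 3 or eWAT array 3 (adjusted p = 0.0507 and 0.0612), and Lmf2 without array 1 or 3 of either group (0.0629 to 0.11). Both were also smaller than the shift of -0.24 that centring on reference genes gave 3T3-L1 adipocytes against eWAT.

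In the list of other uptake and transport proteins 3 of 11 rose and 4 fell in 3T3-L1, 5 rose and 2 fell in PMEF, and 3 rose and 3 fell in ES adipocytes. Got2, a mitochondrial aminotransferase also described as a fatty acid binding protein of the plasma membrane, rose by 2.23 ± 0.09, 1.14 ± 0.09 and 1.46 ± 0.09. The caveolar genes Cav1 and Cavin1 fell by 0.75 ± 0.07 and 0.73 ± 0.07 in 3T3-L1 adipocytes. In PMEF they were at -0.04 ± 0.07 and -0.08 ± 0.07. In ES adipocytes Cav1 was at -0.03 ± 0.07 and Cavin1 rose by 0.26 ± 0.07. Slc27a2, a further transport protein, fell by 1.20 ± 0.12, 1.39 ± 0.12 and 1.27 ± 0.12, with all culture arrays at or below the receptor level. Slc27a3 rose by 1.41 ± 0.14 in PMEF adipocytes and was at -0.19 ± 0.14 in 3T3-L1 and 0.04 ± 0.14 in ES adipocytes. It was at or below the receptor level on 2 of 3 arrays of eWAT and of 3T3-L1. The related Slc27a6 rose by 0.73 ± 0.10 in PMEF adipocytes, a rise that lay at background. Slc27a6 was at or below the receptor level on all eWAT and 2 of 3 PMEF arrays. Cav2, a further caveolin, fell by 0.51 ± 0.08 in 3T3-L1, by 0.45 ± 0.08 in PMEF and by 0.35 ± 0.08 in ES adipocytes. Mfsd2a, a lysophospholipid transporter, rose by 0.76 ± 0.12 in ES adipocytes and by 0.35 ± 0.12 in PMEF. Of the eWAT arrays, 2 of 3 were at or below the receptor level for Mfsd2a. The rise in PMEF came to 0.20 without eWAT array 1 (adjusted p = 0.133). It did not pass without PMEF array 1 or 3 or eWAT array 2 either (0.0763 to 0.0881). Of the palmitoyltransferases that act on CD36, Zdhhc5 rose by 0.42 ± 0.07 in 3T3-L1 adipocytes, and Zdhhc4 fell by 0.25 ± 0.07 in ES adipocytes and rose by 0.22 ± 0.07 in 3T3-L1 and 0.20 ± 0.07 in PMEF. The Zdhhc4 rises did not pass without 3T3-L1 array 2 or eWAT array 3 in the former (adjusted p = 0.0682 and 0.0646) and without PMEF array 1 or 2 or eWAT array 2 or 3 in the latter (0.0514 to 0.0974). The Zdhhc4 rise in 3T3-L1 adipocytes was also smaller than the shift of -0.24 there with arrays centred on reference genes.

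Among 5 other acyl-CoA synthetases 2 rose and none fell in 3T3-L1, none rose and 1 fell in PMEF, and 3 rose and 1 fell in ES adipocytes. Acsl4, which prefers arachidonate, rose by 2.11 ± 0.08 in 3T3-L1 and 0.61 ± 0.08 in ES adipocytes and was at 0.01 ± 0.08 in PMEF. Acsl5 fell by 0.61 ± 0.08 in PMEF and 0.95 ± 0.08 in ES adipocytes. Acsbg1, a synthetase known from brain and gonads, rose by 1.01 ± 0.14 in 3T3-L1 and 0.50 ± 0.14 in ES adipocytes, and Acsl6 rose by 0.55 ± 0.09 in ES adipocytes, with all arrays of the other groups at or below the receptor level. Of 8 other intracellular lipid carriers 2 rose and 2 fell in 3T3-L1, and 1 fell in PMEF and 1 in ES adipocytes. The rises were those of Fabp9 by 0.84 ± 0.15 and Pmp2 by 0.41 ± 0.11, and both lay at background. Pmp2 was at or below the receptor level on all 12 arrays and Fabp9 on all eWAT and 2 of 3 arrays of 3T3-L1. Dbi, the acyl-CoA binding protein, fell by 0.40 ± 0.06 in 3T3-L1 and 0.19 ± 0.06 in ES adipocytes, and Scp2, the sterol carrier, by 0.55 ± 0.10 in 3T3-L1 and 0.47 ± 0.10 in PMEF adipocytes. The Dbi fall in ES adipocytes did not pass without ES array 1 or 2 (adjusted p = 0.0521 and 0.0687). The FABP genes of liver and gut, Fabp1, Fabp2 and Fabp6, were at or below the receptor level on all 12 arrays.

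**Figure D4:**
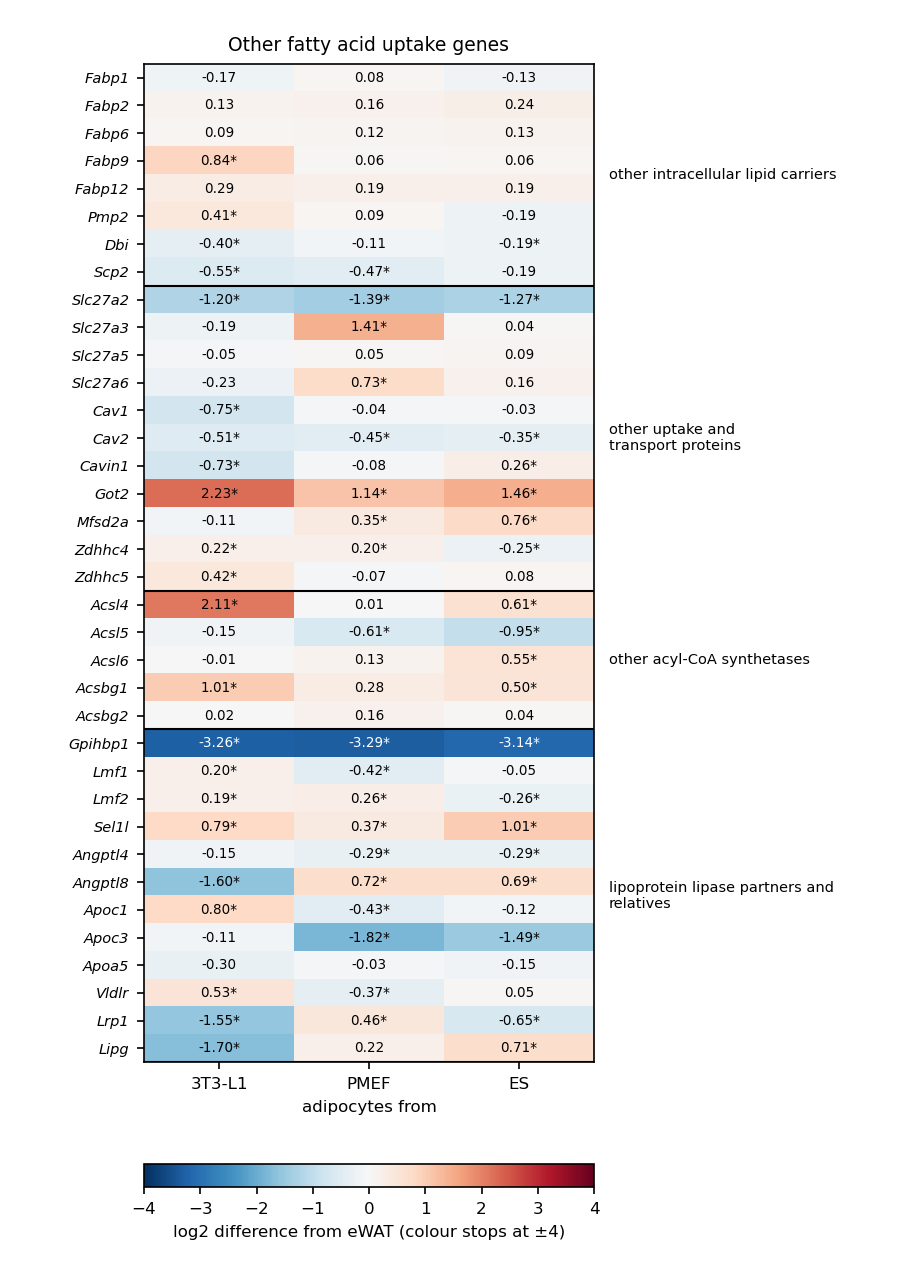
Log2 difference from eWAT of 36 other genes of fatty acid uptake (rows, in 4 lists) in 3T3-L1, PMEF and ES adipocytes (columns), as colour and number; a star marks differences that passed the limma test. Gpihbp1 is between -3.29 and -3.14 in all 3 models, and Angptl8 is at -1.60 in 3T3-L1 but at 0.72 and 0.69 in PMEF and ES adipocytes.

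The genes whose values over the 12 arrays ran most like those of a member were sought among named genes with an SD of at least 0.5. These correlations are descriptions over arrays that fall into 4 groups. For Slc27a1 the nearest were H6pd, Dusp3 and Ehhadh (Pearson r 0.990 to 0.995). H6pd supplies NADPH in the endoplasmic reticulum and Ehhadh is an enzyme of peroxisomal fatty acid oxidation. Ehhadh stood at 9.51 ± 0.25 in eWAT, 8.35 ± 0.06 in PMEF, 7.92 ± 0.16 in ES and 5.61 ± 0.23 in 3T3-L1 adipocytes. For Fabp7 they were Acp6, Prelid2 and Reep1 (0.990 to 0.992), of which Prelid2 was at 8.29 ± 0.13 in ES adipocytes and at 4.65 to 5.18 by mean elsewhere. These lower means of Prelid2 lay within or below the range of the receptor level, 5.04 to 5.36. For Fabp3 they were Ak1, Akr1c14 and Zmat3 (0.993 to 0.995), and for Fabp5 Nudcd2, Traf4 and Snord49b (0.978 to 0.986). Ak1, an adenylate kinase, stood at 9.62 ± 0.12 in PMEF, 8.53 ± 0.05 in ES, 7.08 ± 0.11 in 3T3-L1 adipocytes and 7.18 ± 0.29 in eWAT. For Slc27a4 they were Mrps22, Tefm and Mif (0.958 to 0.964). The nearly level genes gave Naalad2, Aacs and Cox8b for Cd36 (0.957 to 0.962), Egln1, Sbsn and Atp10d for Lpl (0.927 to 0.958), and Ptpn4, Pik3cb and Net1 for Fabp4 (0.926 to 0.933). Naalad2 was below the receptor level by mean in ES adipocytes, at 3.41, and in PMEF adipocytes, at 4.44.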

How the data were processed

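The deposited table holds log2 intensities of 35556 probe sets on 12 arrays, normalized by the authors; the sources used here do not name the method, and the log base was read from the values. Per the labels, TRIzol RNA was copied to biotinylated cDNA with the Ambion WT Expression kit. Values were used as deposited. The array annotation, updated by Entrez ID through a RefSeq table, gave 21789 probe sets with 1 symbol, and the brightest stood for each of 19938 genes. Group means of all 12 arrays entered 1 limma fit (version 3.58.1, R 4.3.3), adjusted over all genes. No detection calls were used; precision is limited by the number of arrays. The p-values rest on the spread between these samples, pooled for each gene over the 4 groups. The 9 genes, the pathway and marker lists and the naming rule were chosen with earlier results of these data known. Named were all members, the 3 largest called rises and falls of each pathway list in each comparison and those within 1 log2 unit of the largest, all markers, and the 3 nearest genes by correlation. Alternatives were quantile normalization, centring, filtering of dim genes, probe set choice, group subsets, a replicate block, variance options, array weights, treat and left-out arrays. The other probe sets of Fabp3 and Fabp5 were an alternative chosen after seeing the data. The fit was tested on simulated data.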

Additional observations from a re-analysis of the deposited data

Results flagged for a closer look

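Fabp7 moved in opposite directions against eWAT in 2 of the models: it rose by 4.83 in ES adipocytes and fell by 1.02 in 3T3-L1 adipocytes, and the difference between these models, 5.84 on the log2 scale, passed the limma test (adjusted p = 1.58e-11). In 3T3-L1 adipocytes 2 of 3 arrays were at or below the receptor level, so the 1.02 and the 5.84 are rough in size. Both comparisons share the eWAT arrays.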

How the results depend on the processing

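Of 1104 recomputed values of single genes, 1017 kept direction and call, 44 lost the call, 28 gained it and 15 changed sign. Testing against a log2 change of 1 (treat) left 2, 1 and 3 members called against eWAT in 3T3-L1, PMEF and ES adipocytes (4, 5 and 7 without it), and 2, 3 and 1 for PMEF and ES against 3T3-L1 and ES against PMEF (4, 5 and 6); over all genes it called 1828, 1274, 1118, 1579, 955 and 610 in place of 10628, 9225, 9911, 9985, 8651 and 8501, by its own construction. Centring on reference genes called 7 members in 3T3-L1 adipocytes against eWAT, where it called 63.1% of all genes, and centring on array medians called 8 in PMEF against 3T3-L1, where it called 60.2%. Signs changed in 3T3-L1 against eWAT for Cd36 (0.0036 with quantile normalization, 0.18 with medians), Fabp4 (0.061, medians), Fabp3 (-0.17, reference genes) and Lpl (-0.21, reference genes). In PMEF against 3T3-L1 they changed for Fabp4 (0.020 with quantile normalization, 0.16 with reference genes), Cd36 (0.094) and Lpl (0.10, both reference genes), and in ES against 3T3-L1 for Fabp4 (-0.13), Lpl (-0.0093) and Slc27a4 (-0.056), all with medians. With the changed sign, Cd36 (medians, adjusted p = 0.0232) and Lpl (reference genes, 0.0142) passed the limma test in 3T3-L1 against eWAT. So did Fabp4 in PMEF against 3T3-L1 with reference genes (0.0335). The cause of the sign changes was not tested. Leaving out 1 array at a time gave 4 to 5, 4 to 6 and 7 to 7 members called against eWAT, and 3 to 5, 4 to 6 and 6 to 6 between models; Fabp3 in 3T3-L1 adipocytes against eWAT ranged from -0.044 to 0.21 and Lpl from -0.014 to 0.074. With the replicate number as a block, 4, 5, 7, 3, 5 and 6 members were called and 10519, 9009, 9739, 9832, 8435 and 8287 genes; Slc27a4 in PMEF against 3T3-L1 lost its call. Same-numbered arrays did not deviate together (r -0.137 to 0.108, and 1 of 12 arrays was closest to its own number), and paired within-array tests gave an exact permutation p of 0.25, the smallest possible. Levels near the receptor genes and near the top of the scale limit Fabp3, Fabp7, Fabp4, Cd36 and Lpl, and Fabp5 in the cultures.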

Other observations

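In the RefSeq gene order Fabp5, Pmp2, Fabp9, Fabp4 and Fabp12 follow each other on mouse chromosome 3 with no other protein-coding gene among them. Only Fabp4 and Fabp5 of these 5 paralogs were bright. Pmp2, the FABP of myelin, was at or below the receptor level on all 12 arrays, with means of 4.02 to 4.63, and Fabp9, the FABP of testis, on all but 1 array of 3T3-L1 adipocytes, a group with a mean of 4.79. Fabp12 had means of 4.80 to 5.09. Against eWAT, Fabp5 in the cultures differed by 1.36 to 1.88 and Fabp4 by -0.20 to -0.08.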
